A study of Rattus norvegicus with 12 samples.

Results

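The collagens, laminins and integrins are the genes that build the extracellular matrix under the gut epithelium and the receptors that hold cells to it. The group was chosen by gene name: every probe whose array symbol named a collagen chain, a laminin chain or an integrin subunit, plus Fn1, Sparc, Dcn and Lum, and then, of these, the probes with a detection p under 0.05 on 3 or more of the 12 arrays. By name 55 of the 22517 probes qualified, each for a different gene, and 25 of them passed the detection rule, out of 9137 probes that did so in all. The name pattern also caught Itgb1bp1 and Itgb3bp, which encode proteins that bind integrins and are neither collagens nor integrins. The level on which all results rest is the background-corrected, normalized array signal on a log2 scale, on which 1 unit is a doubling of signal above an added constant.

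The samples were intestinal mucosa of male Sprague Dawley rats (written Spraque Dawley in the labels), hybridised to an Illumina RatRef-12 bead array. Sham rats had the bowel cut and rejoined, and rats with short bowel syndrome (SBS) had 75% of the bowel removed, so that all animals carried a bowel wound. The arrays comprised 3 sham ileal samples (rats 33, 34 and 35), 4 SBS ileal samples (rats 36 to 39), 1 sham jejunal sample (rat 33) and 4 SBS jejunal samples (the same rats 36 to 39). The labels name no drug, genotype, age or time after surgery, and the rat numbers are read from sample codes that the labels do not state outright to be animals. The series is about platelet-derived growth factor alpha (PDGF-alpha), a signal that epithelial cells send to the stroma beneath them.

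Fibroblasts and smooth muscle cells secrete fibrillar collagens, which bundle into the cables of connective tissue, and small proteoglycans such as decorin and lumican, which coat and space those cables. Beneath the epithelium lies the basement membrane, a sheet of type IV collagen and laminins. Integrins are paired alpha and beta chains in the cell membrane that bind these molecules from the epithelial, stromal or leukocyte side. PDGF made by the epithelium is received by stromal cells that carry its receptors, and these cells are a main source of matrix in the villus core.

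The promoters of 3 matrix genes that went up and down together across the rats are shown here, because their levels carry the pattern described later. They come from RefSeq (build GRCr8) and run from 250 bases before to 50 after the annotated start. Capitals mark every match, on either strand, to the TATA box (searched as TATAAA), to the box known as CCAAT, to the GC box (searched as GGGCGG) and to the AP-1 site (searched as TGANTCA). The promoter window of Col1a2 is chr4:33518307-33518606 on the plus strand, that of Lum is chr7:34245456-34245755 on the plus strand and that of Sparc is chr10:40038767-40039066 on the minus strand.
Col1a2: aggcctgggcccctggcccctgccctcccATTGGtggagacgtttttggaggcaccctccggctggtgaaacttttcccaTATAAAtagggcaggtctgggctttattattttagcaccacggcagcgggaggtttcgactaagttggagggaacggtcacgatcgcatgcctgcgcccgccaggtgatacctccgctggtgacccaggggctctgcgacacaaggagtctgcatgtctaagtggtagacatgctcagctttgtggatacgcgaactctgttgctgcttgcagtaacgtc
Lum: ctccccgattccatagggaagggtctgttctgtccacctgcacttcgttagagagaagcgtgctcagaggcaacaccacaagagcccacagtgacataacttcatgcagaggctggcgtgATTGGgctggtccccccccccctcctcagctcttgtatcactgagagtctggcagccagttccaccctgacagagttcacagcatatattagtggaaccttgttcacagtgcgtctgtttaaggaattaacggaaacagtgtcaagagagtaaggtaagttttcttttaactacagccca
Sparc: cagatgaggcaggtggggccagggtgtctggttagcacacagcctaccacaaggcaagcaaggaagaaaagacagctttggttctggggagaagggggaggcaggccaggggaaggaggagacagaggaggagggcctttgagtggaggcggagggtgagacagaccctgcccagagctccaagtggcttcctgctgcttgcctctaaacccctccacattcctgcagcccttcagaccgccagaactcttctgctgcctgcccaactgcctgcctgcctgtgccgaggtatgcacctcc
The Col1a2 window held a TATAAA that began at position -170 and a CCAAT on the opposite strand (read as ATTGG) at position -221, both counted from the annotated start. The Lum window held a CCAAT on the opposite strand at position -130, and the Sparc window held none of the 4 sequences. Of the 25 measured members 20 had a promoter in the table. CCAAT occurred in 5 of these 20, against 37.5% of all 33469 promoters of the same length. TATAAA occurred in 3 of 20 against 14.2%, GGGCGG in 8 of 20 against 33.1%, and TGANTCA in 1 of 20 against 7.33%. A match is a string of letters, not a measured binding site.

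Across the 12 arrays 7041 to 8821 of the 22517 probes were detected, and between 12 and 28 of the 55 member probes. The epithelial identity of the samples was clear in all groups: the 7 measured epithelial markers (such as Epcam, Cdh1 and Vil1) were detected on all 12 arrays. The SBS jejunal array of rat 36 stood apart by pancreatic transcripts, with a summed signal of the 3 measured pancreatic markers of 798.5 against 139.5 to 262.9 on the other 11 arrays. Results on members that passed a test are therefore also given without this rat. In SBS ileum the skeletal actin gene Acta1 was far above sham (log2 difference 5.40 ± 0.74 SE, limma adjusted p = 0.00458). Of 7 skeletal muscle markers on the array 2 were measured, Acta1 and Tnnc2, and Tnnc2 was lower in SBS ileum without passing the test. The other 5, Myh2, Myh4, Ckm, Tnnt3 and Actn3, and Itga7, a muscle integrin, were detected on 0 arrays.

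Of the 25 collagen probes on the array, 10 were measured. Among the 9 fibrillar chains these were Col1a2, Col5a1, Col5a2 and Col27a1. Col1a2, which encodes the alpha-2 chain of type I collagen, was detected on all 12 arrays. Col1a1, its partner chain in the same triple helix, was detected on 0 arrays. Col3a1, the type III chain of distensible tissue, was detected on 2 arrays, which left it just outside the rule. Of the 7 network and basement membrane chains Col4a1 was detected on all 12 arrays and Col18a1 on 4. Col4a1 is a core chain of the basement membrane, and Col18a1 is a basement membrane collagen that yields endostatin. The other 4 measured collagens were Col6a1 (beaded filaments), Col7a1 (anchoring fibrils), Col14a1 (fibril-associated) and Col17a1 (a transmembrane collagen of epithelia).

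None of the 5 laminin probes was measured: Lama1, Lamb3, Lamc1 and Lamc3 were detected on 0 arrays and Lamb2 on 1. Nothing about the laminins follows from these arrays, since a probe below detection gives only an upper bound. All 4 matrix glycoproteins and proteoglycans were measured, on 8 arrays for Fn1, 9 for Lum and 11 each for Dcn and Sparc. Of 17 integrin probes 9 were measured. Among the members just inside the rule, Itgad and Col17a1 were detected on 3 arrays, with levels of 4.36 to 4.93 and 4.25 to 5.31. Just outside it, with detection on 2 arrays, were Col3a1 (4.33 to 4.96), Itga10 (4.40 to 4.88), Col11a2 (4.34 to 4.73) and Col6a4 (4.34 to 5.06). The lowest level at which any probe was detected lay between 4.64 and 4.90, depending on the array.

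The matrix gene with the plainest signal was Col1a2, and it differed widely among rats of the same group. Where type I collagen is named below, it stands for this chain alone, since Col1a1 was not detected. Col1a2 was at 8.32, 7.11 and 7.99 in the ileum of sham rats 33, 34 and 35. In SBS ileum it was at 5.76, 8.49, 8.14 and 4.97 in rats 36, 37, 38 and 39. The sham values lay between the high pair of SBS rats and the low pair, apart from rat 33, which lay between rats 38 and 37. In jejunum Col1a2 was at 7.97 in sham rat 33 and at 6.73, 8.82, 7.88 and 7.32 in the SBS rats, again with rat 37 highest and rat 36 now lowest. The group means were 7.81 ± 0.62 (SD, n = 3) in sham ileum, 6.84 ± 1.74 (n = 4) in SBS ileum and 7.69 ± 0.89 (n = 4) in SBS jejunum.

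Dcn, which encodes decorin, a proteoglycan that binds collagen fibrils, showed the widest spread. It was at 7.41, 6.00 and 7.21 in sham ileum and at 5.64, 8.49, 7.39 and 4.47 in SBS ileum, the last value below detection. Rat 37 thus lay above all sham rats, rats 36 and 39 below them, and rat 38 among them. In jejunum it was at 7.07 in the sham rat and at 6.14, 8.0, 6.98 and 5.82 in the SBS rats.

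Sparc encodes osteonectin, a collagen-binding glycoprotein of remodelling tissue. Its levels were 7.32, 6.29 and 7.15 in sham ileum, 5.24, 7.87, 7.45 and 4.43 in SBS ileum, 7.33 in sham jejunum and 6.14, 8.13, 7.17 and 6.74 in SBS jejunum. Rat 37 was again the highest and rat 39 the lowest in SBS ileum, the latter below detection. Lum encodes lumican, a proteoglycan that regulates fibril assembly. It was at 5.76, 5.20 and 5.87 in sham ileum and at 4.57, 6.88, 5.97 and 4.40 in SBS ileum. In jejunum it was at 5.56 in sham and at 4.68, 6.95, 6.06 and 5.26 in SBS. The SBS ileal values of rats 36 and 39 and the jejunal value of rat 36 were below detection.

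Col5a2, a chain of the type V collagen that seeds type I fibrils, was at 5.51, 5.24 and 5.75 in sham ileum. In SBS ileum it was at 4.45, 6.65, 5.81 and 4.29, with rats 36 and 39 below detection. Col6a1 was at 5.96, 4.93 and 5.68 in sham ileum and at 4.63, 6.39, 5.78 and 4.60 in SBS ileum, with the same rats below detection. Both genes thus had the same high and low rats as type I collagen. Fn1, which encodes fibronectin, the glycoprotein that integrins bind while matrix is laid down, was at 5.62, 4.60 and 5.18 in sham ileum and at 4.67, 5.99, 5.80 and 4.50 in SBS ileum. The ileal Fn1 values of sham rat 34 and SBS rats 36 and 39 were below detection. Col4a1 was at 5.92, 5.29 and 5.59 in sham ileum and at 4.88, 5.85, 6.44 and 5.12 in SBS ileum. Rat 38 was thus highest for the basement membrane chain.

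**Figure D1:**
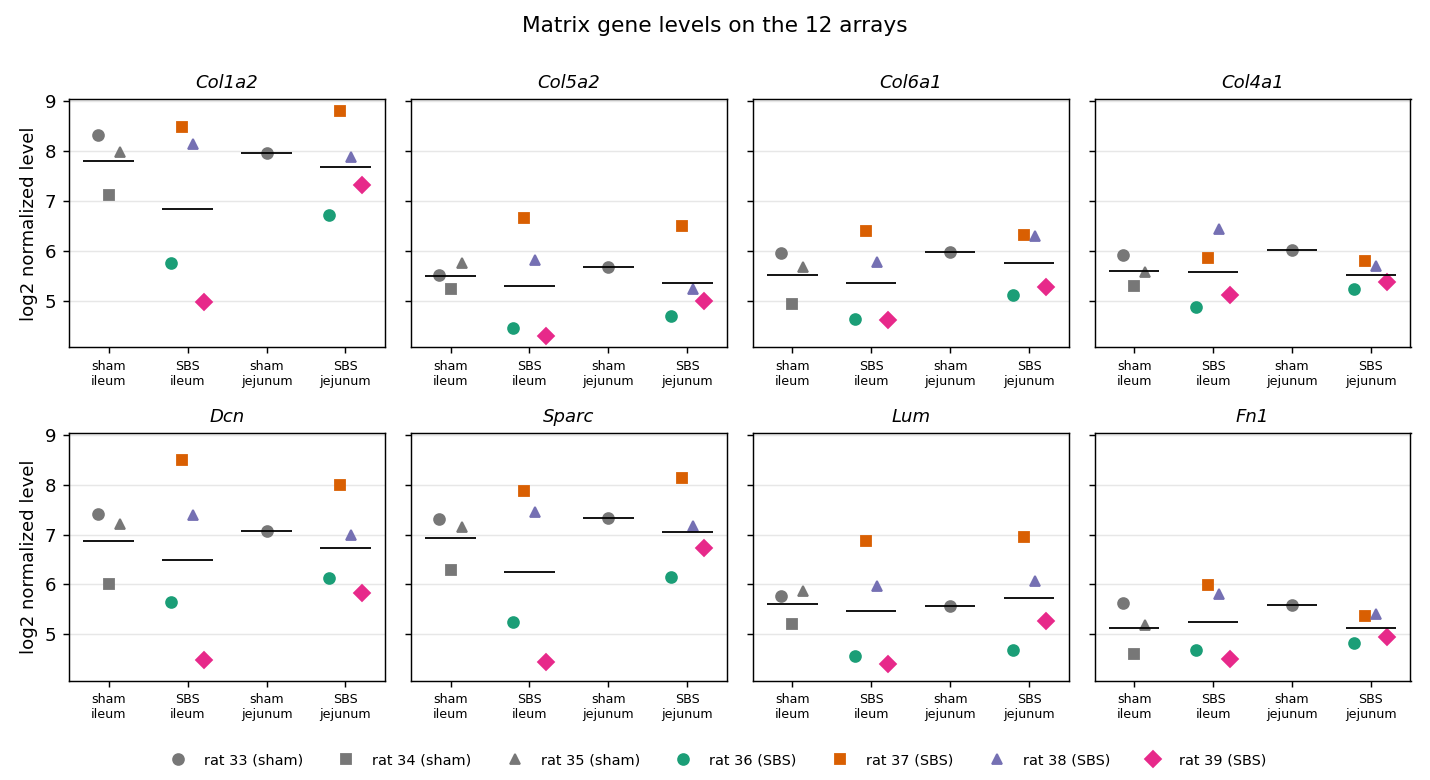
Log2 normalized level (y axis) of Col1a2, Col5a2, Col6a1, Col4a1, Dcn, Sparc, Lum and Fn1 in the 4 groups (x axis), with each array as a point marked by rat and the group mean as a line. The 4 SBS ileal points of Col1a2 run from 4.97 to 8.49, on both sides of the sham points at 7.11 to 8.32.

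The remaining collagens sat close to the limit of detection. Col5a1, Col7a1, Col18a1 and Col27a1 ranged from 4.38 to 5.28 over all 12 arrays. Col14a1 was at 5.03, 5.24 and 5.57 in sham ileum and at 4.36, 5.08, 4.67 and 4.52 in SBS ileum, where it was detected only in rat 37. Col17a1 was at 4.45, 4.51 and 4.66 in sham ileum and at 4.26, 4.45, 4.25 and 4.25 in SBS ileum, where it was below detection on all 4 arrays. Its single sham jejunal value was 5.31, above the 4.76, 4.38, 4.98 and 4.54 of SBS jejunum.

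The matrix genes varied more among rats of a group than most probes did. The pooled SD within groups was 1.31 for Dcn, which was larger than that of 99.8% of the 9137 kept probes. It was 1.24 for Col1a2 (larger than 99.7%), 1.18 for Sparc (99.7%), 0.96 for Lum (99.1%) and 0.86 for Col5a2 (98.8%). The median over all kept probes was 0.229 and over the measured members 0.416, and 11 of the 25 members lay above the 90th percentile of all probes. The range over the 4 SBS ileal arrays exceeded 2 log2 units for 5 of 25 members and for 1.34% of all kept probes.

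The same rats were high or low for most matrix genes. Rat 37 had the highest SBS ileal level for 9 of the 14 measured collagens, glycoproteins and proteoglycans (64.3%, against 22.5% of all kept probes). It was highest in SBS jejunum for 9 of the 14 as well (64.3% against 18.4%). Rat 39 had the lowest SBS ileal level for 10 of the 14 (71.4% against 23.8%), and rat 36 the lowest SBS jejunal level for 9 (64.3% against 30.9%). Among the sham ileal arrays rat 34 was lowest for 9 of the 14 (64.3% against 32.2%). The genes are not independent of each other, and these shares are descriptions of the arrays.

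Added up on a linear scale, the normalized signal of the 14 matrix genes was 417.6, 1538, 1098 and 351 in the ileum of SBS rats 36, 37, 38 and 39, a 4.38-fold range. It was 1077, 616.9 and 973.6 in the sham ileum and 1013 in the sham jejunum. In SBS jejunum it was 569.5, 1555, 966.4 and 659.1. The sum over the 9 integrins, to which bright probes such as Itgb1 add most, ran from 1119 to 1554 in SBS ileum, a 1.39-fold range. Probe by probe, rat 39 had the lowest SBS ileal level for 8 of the 9 integrins (88.9%, against 23.8% of all kept probes) and rat 37 the highest for 5 (55.6% against 22.5%).

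In SBS ileum the summed signals of 3 marker lists for other cells of the gut wall moved with the matrix sum from rat to rat. Of 8 smooth muscle markers on the array 4 were measured (Actg2, Tagln, Des and Smtn), and their summed signal was 136.6, 459.8, 390.3 and 119.5 in the ileum of rats 36 to 39, a 3.85-fold range. The defining smooth muscle genes Cnn1, Lmod1 and Mylk were detected on 0 arrays. The 4 measured of 8 endothelial markers (Emcn, Plvap, Tie1 and Esam) summed to 182.9, 576, 404.3 and 163.7, with Cdh5, Vwf, Tek and Egfl7 at 0 arrays. The 5 measured of 8 macrophage and myeloid markers, which include the complement genes C1qa, C1qb and C1qc, summed to 362.7, 1119, 702.6 and 310.1, with Adgre1 at 0 arrays. The order of the 4 rats was the same for all 3 lists as for the matrix sum.

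The 5 measured of 8 fibroblast markers (Pdgfra, Vim, Dpt, Mfap4 and Fbln1) summed to 249.6, 356.4, 252.5 and 201.1, a 1.77-fold range, with Thy1, Fap and Cd34 at 0 arrays. The 7 epithelial markers spanned a 1.07-fold range, from 21900 to 23480. In SBS jejunum the smooth muscle sum was likewise lowest in rat 36 (137.4) and highest in rat 37 (487.3), as were the endothelial and macrophage sums. The fibroblast sum there was nearly equal in rat 36 (267.7), where the matrix sum was lowest, and in rat 37 (266.5), where the matrix sum was highest. In sham ileum the fibroblast sum was highest in rat 34 (427.6, against 317.5 and 340.7). The matrix, smooth muscle, endothelial and macrophage sums were lowest in that rat. The 4 pericyte, 5 enteric neuron and glia and 2 mesothelial markers on the array were below detection on all 12 arrays. The part of these cell types in the spread of the matrix genes was not tested. In such bulk samples fewer cells of a type and less RNA per cell cannot be told apart.

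**Figure D2:**
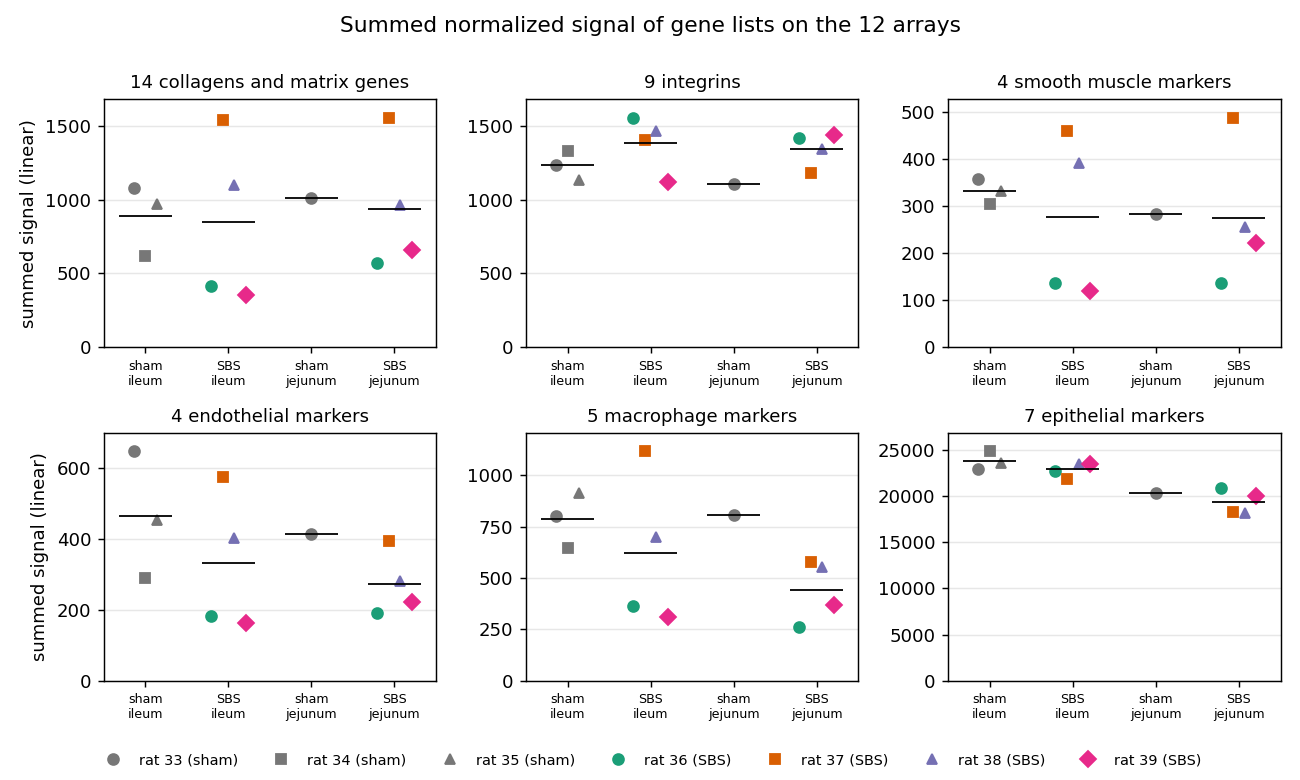
Summed normalized signal on a linear scale (y axis, starting at 0) of the 14 matrix genes, the 9 integrins and 4 marker lists in the 4 groups (x axis), with each array as a point marked by rat and the group mean as a line. Rat 37 is high and rats 36 and 39 are low in SBS ileum for the matrix, smooth muscle, endothelial and macrophage sums, while the epithelial sum stays between 21900 and 23480 there.

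The study's main question is what resection does to the mucosa that remains. No collagen, glycoprotein, proteoglycan or integrin passed the test in the ileum: limma called 0 of the 25 members at an adjusted p under 0.05 (Benjamini-Hochberg over 9137 probes), against 2.93% of all probes (0.646% higher and 2.29% lower). At an unadjusted p under 0.05 there were 5 of 25 (20%), against 16.8% of all probes. The values of sham and SBS did not overlap for 5 of 25 members, against 19.1% of all probes. The median member difference was -0.09, and the median over all probes was 0.03.

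For type I collagen the SBS minus sham difference in ileum was -0.97 ± 0.79 SE (95% interval -2.68 to 0.75, adjusted p = 0.591). It ranged from -1.52 without SBS rat 37 to -0.34 without SBS rat 39, so single rats decide its size. Sparc differed by -0.67 ± 0.75 (-2.31 to 0.96, adjusted p = 0.702) and ranged from -1.21 to -0.07 over the same omissions. The Dcn difference of -0.37 ± 0.83 (-2.19 to 1.44, adjusted p = 0.868) became 0.30 without SBS rat 39. The Lum difference of -0.15 became 0.20 without it. Intervals this wide span both a loss and a gain for each of these 4 genes.

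The collagen with the smallest adjusted p in ileum was Col14a1, at -0.63 ± 0.19 (adjusted p = 0.105). Its difference was -0.77 without the ileum of SBS rat 37, the only SBS array on which it was detected. Sham arrays alone then detected Col14a1. The gene met the detection rule only with its sham arrays, so both values are descriptions. Col4a1 and Col18a1, the basement membrane chains, differed by -0.03 ± 0.32 and 0.03 ± 0.17. Col18a1 was detected on 1 of the 7 ileal arrays.

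Among the integrins of epithelium and stroma, Itgb1 encodes the beta-1 chain that pairs with most matrix-binding alpha chains. It was at 9.05, 8.96 and 8.70 in sham ileum and at 9.34, 9.39, 9.33 and 9.21 in SBS ileum, so that the groups did not overlap. The difference of 0.41 ± 0.20 (-0.02 to 0.84) did not pass the test (adjusted p = 0.325). Itgb5 encodes the beta-5 chain, which pairs with alpha-v to bind vitronectin. It was at 5.32, 5.06 and 5.25 in sham ileum and at 6.52, 5.89, 6.30 and 5.21 in SBS ileum, where rat 39 fell among the sham values. Its difference was 0.77 ± 0.32 (0.06 to 1.48, adjusted p = 0.253).

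Itgb4, the beta-4 chain of the hemidesmosomes that anchor epithelium to laminin, was at 8.11, 8.65 and 8.25 in sham ileum and at 8.17, 8.16, 8.44 and 7.76 in SBS ileum. The difference was -0.21 ± 0.28 (adjusted p = 0.761). Itgb6, an epithelial chain that with alpha-v releases active TGF-beta, differed by 0.06 ± 0.31, Itga2, the collagen-binding alpha-2 chain, by -0.04 ± 0.23, and Itga1, the other collagen-binding chain measured, by 0.16 ± 0.28. None of these passed the test, and their intervals reached at least 0.40 log2 units in either direction.

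Of the leukocyte integrins, Itga4 encodes the alpha-4 chain by which lymphocytes enter the gut. It was at 4.95, 5.08 and 4.97 in sham ileum and at 4.45, 4.87, 4.50 and 4.30 in SBS ileum, with no overlap. Among the SBS arrays only the ileum of rat 37 detected it. The difference was -0.47 ± 0.14 (adjusted p = 0.113), and -0.58 without SBS rat 37, when sham arrays alone detected Itga4. The gene met the detection rule only with its sham arrays, so both values are descriptions. Itgb7, its beta-7 partner, was at 5.96, 5.88 and 6.17 against 6.29, 6.62, 5.47 and 5.29, with the SBS rats on both sides of sham, and differed by -0.09 ± 0.31. Itgad, the alpha-D chain of macrophages, was below detection on all 4 SBS ileal arrays and detected on 2 of 3 sham arrays, with measured means of 4.42 and 4.74 and no fold that its bound allows. It entered the measured set only through sham arrays, so its difference from sham is given as a description.

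General leukocyte markers differed in the same comparison. Of 6 markers 5 were called lower in SBS ileum, against 2.29% of all probes, led by Ptprc (CD45) at -1.87 ± 0.32 (adjusted p = 0.0106). Of 6 measured B and plasma cell markers 4 were called lower. In both lists all 6 differences were negative. With 1 array left out the count of 5 ranged from 0 to 6 and the count of 4 from 2 to 4, both lowest without the ileum of sham rat 34 or 35. The summed leukocyte signal was 2652 to 6292 in sham and 886.4 to 2404 in SBS ileum. The part of these cells in the integrin values was not tested. The macrophage integrin chain Itgam and the lymphocyte chain Itgal were detected on 0 arrays.

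**Figure D3:**
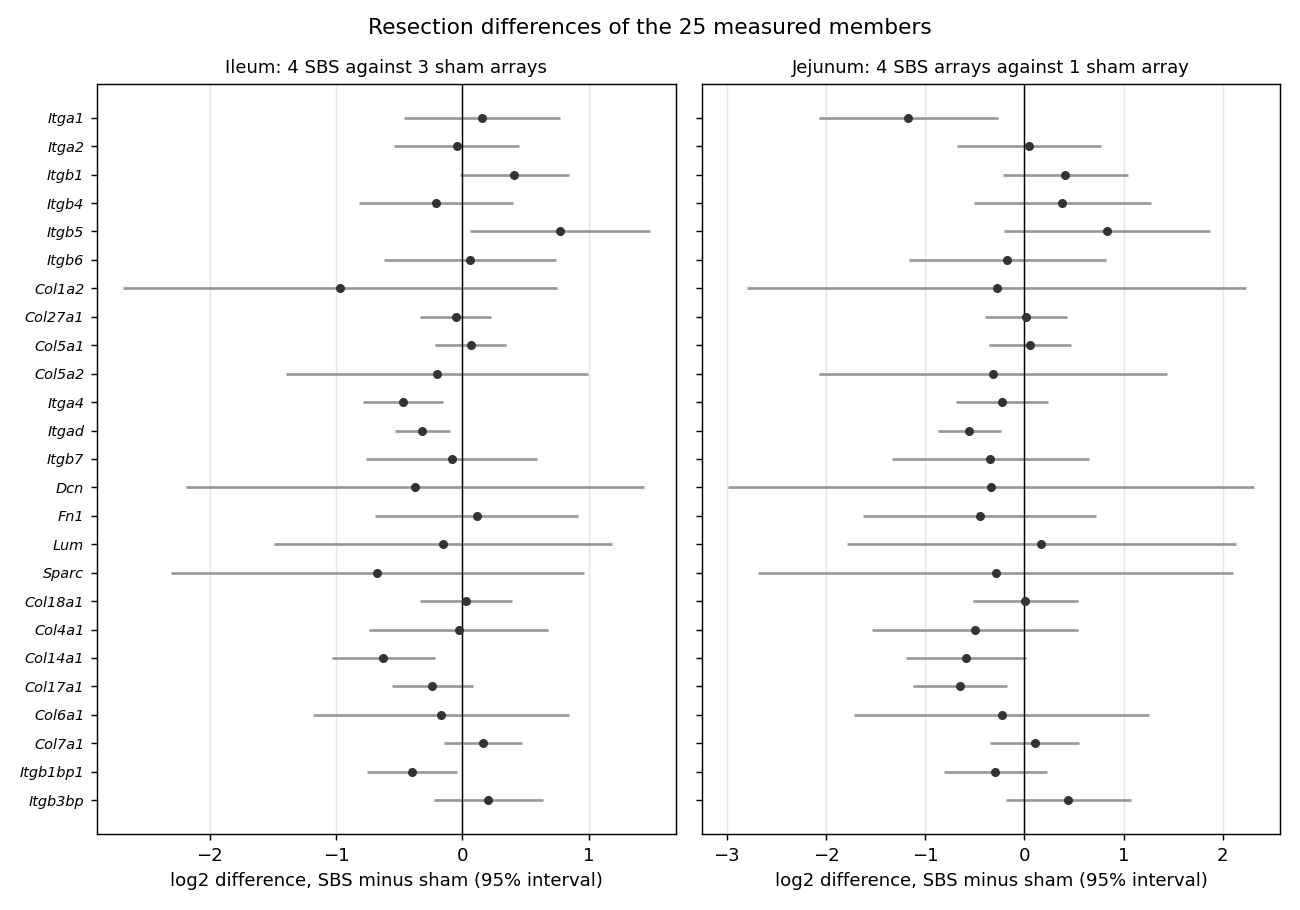
Log2 difference of SBS minus sham (x axis, with bars for the 95% interval) of the 25 measured members (y axis) in ileum, with 4 against 3 arrays, and in jejunum, with 4 against 1. The widest ileal interval is that of Dcn, from -2.19 to 1.44, and no member passed the adjusted test in either region.

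In jejunum the 4 SBS arrays could be set only against the single array of sham rat 33, so that the spread of the sham group was taken from the other groups. Limma called 0 of 25 members, against 1.47% of all probes, and 3 of 25 (12%) had an unadjusted p under 0.05, against 11.9%. The median member difference was -0.23 and the median over all probes 0.01. The sham value lay outside the SBS values for 11 of 25 members, against 41.1% of all probes.

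Itga1, the alpha-1 chain that binds type IV and type I collagen, was at 6.15 in the sham jejunum and at 4.70, 5.49, 4.45 and 5.26 in SBS jejunum, a difference of -1.17 ± 0.41 (adjusted p = 0.244). The SBS jejunal values of rats 36 and 38 were below detection. The sham jejunal value was also 1.28 above the mean of the 3 sham ileal arrays, and was the highest of all 12. Col17a1 differed by -0.65 ± 0.22 (adjusted p = 0.213), and its sham jejunal value was likewise the highest of all 12. Itgad was below detection in all 4 SBS jejunal samples and at 4.93 in sham, at least 1.11-fold higher in sham, a description for the reason given for the ileum. Col14a1 was below detection in all 4 as well and at least 1.35-fold higher in sham. It too met the detection rule only with sham arrays, and the value rests on 1 sham jejunal array, so it is a description. "At least" sets the sham level against the lowest detected level of each SBS array or the probe's own, whichever was higher.

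Itgb5 was at 5.80 in the sham jejunum and at 7.28, 6.46, 6.81 and 5.99 in SBS jejunum, all above sham, and differed by 0.83 ± 0.48 (-0.21 to 1.87, adjusted p = 0.556). Type I collagen differed by -0.28 ± 1.15 (adjusted p = 0.971) and fibronectin by -0.45 ± 0.54 (adjusted p = 0.864). Among the network collagens Col4a1 differed by -0.50 ± 0.48 (adjusted p = 0.803), and its 6.03 in sham lay above all SBS values of 5.23 to 5.80.

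The effect of resection was then compared between the regions, as the jejunal minus the ileal difference. Limma called 0 of 25 members, against 0.186% of all probes, and 1 of 25 (4%) had an unadjusted p under 0.05, against 5.47%. That gene was Itga1, at -1.33 ± 0.50 (adjusted p = 0.75). The sham jejunal array enters both this value and the jejunal comparison. The median member value was 0.0005 and the median over all probes -0.01.

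The SBS rats gave ileum and jejunum of the same animal, which allowed the regions to be compared within rats. Without regard to the pairing limma called 0 of 25 members in SBS jejunum against SBS ileum, against 9.27% of all probes (4.9% higher and 4.37% lower in jejunum). At an unadjusted p under 0.05 there were 4 of 25 (16%) against 21.2% of all probes. With the rat as a block on the 8 SBS arrays, 3 of 25 members (12%) passed, against 13.9% of all probes. All 3 were integrin chains, 1 higher in jejunum (against 7.12% of all probes) and 2 lower (against 6.8%).

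Itgb5 rose from ileum to jejunum in every SBS rat, from 6.52 to 7.28 in rat 36, from 5.89 to 6.46 in rat 37, from 6.30 to 6.81 in rat 38 and from 5.21 to 5.99 in rat 39. The within-rat difference was 0.65 ± 0.12 SE (95% interval 0.38 to 0.93, limma adjusted p = 0.00668), against an adjusted p of 0.239 without the block and 0.0541 with the rat as a random block on all 12 arrays. The steps of 0.76, 0.57, 0.51 and 0.78 were much alike although the rats differed by over 1 log2 unit in level. In sham rat 33 the gene went from 5.32 to 5.80, a step of 0.48. Without rat 36 the difference was 0.62 (adjusted p = 0.0355). With each array scaled to its median in place of quantile normalization it was 0.69 and no longer passed (adjusted p = 0.079).

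Itgb6 fell from ileum to jejunum in every SBS rat, from 8.31 to 7.47, from 7.23 to 6.77, from 7.73 to 7.40 and from 6.91 to 6.54 in rats 36 to 39. The difference was -0.49 ± 0.13 (-0.79 to -0.19, adjusted p = 0.0367, against 0.389 without the block and 0.136 with the rat as a random block). Rat 33 stepped by -0.28. The call was lost when any single rat was left out (adjusted p from 0.0503 to 0.155) and with median scaling (adjusted p = 0.278).

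Itga2 fell from 5.68 to 4.63 in rat 36, from 5.33 to 4.92 in rat 37 and from 6.14 to 4.98 in rat 38, and was at 5.63 and 5.58 in rat 39. The difference was -0.67 ± 0.19 (-1.09 to -0.24, adjusted p = 0.0445, against 0.0741 without the block and 0.0227 with the rat as a random block). The jejunal value of rat 36 was below detection. Sham rat 33 stepped by -0.69, from 5.67 to 4.98. The call was lost without rat 36, 37 or 38 (adjusted p = 0.186, 0.0812 and 0.187) and with median scaling (adjusted p = 0.332). It was also lost with the deposited log2 values (adjusted p = 0.0963) and with an offset of 50 (adjusted p = 0.108).

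**Figure D4:**
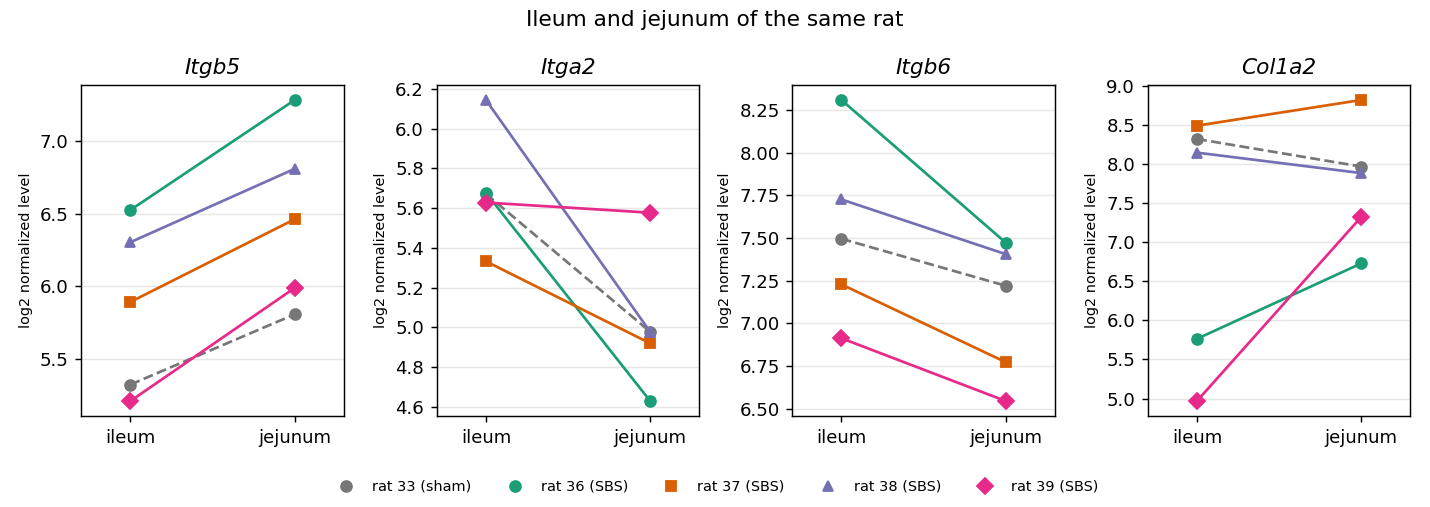
Log2 normalized level (y axis, a separate range for each gene) in ileum and jejunum (x axis) of the same rat, with lines joining the samples of each of the 4 SBS rats and a dashed line for sham rat 33. The Itgb5 lines all rise, the Itgb6 lines all fall, and the Col1a2 lines cross.

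Matrix genes did not pass in the same paired fit. The type I collagen difference was 0.85 ± 0.34 (0.09 to 1.60, adjusted p = 0.141), with steps of 0.96, 0.33, -0.26 and 2.35 in rats 36 to 39. Sparc differed by 0.80 ± 0.33 (adjusted p = 0.164) and Col6a1 by 0.40 ± 0.15 (adjusted p = 0.108). Col5a1, a further type V chain, was higher in jejunum in 4 of 4 rats, by 0.31 ± 0.13 (adjusted p = 0.168), and Itgb7 lower in 4 of 4, with a difference of -0.63 ± 0.26 (adjusted p = 0.157). Beside these integrin values, 8 of 9 measured T and NK cell markers were lower in SBS jejunum than in SBS ileum with the rat as a block, against 6.8% of all probes, with Cd8a at -1.84 ± 0.26 (adjusted p = 0.00128). In the unpaired fit 7 of 9 were called lower, against 4.37% of all probes, and 3 to 6 with 1 array left out, fewest without the ileum or the jejunum of rat 37. Of the 7 epithelial markers 6 were lower in SBS jejunum. Cdx2 and Krt19 passed in the blocked fit, at -0.60 ± 0.12 (adjusted p = 0.00912) and -0.69 ± 0.16 (adjusted p = 0.0222). The epithelial sum was 18220 to 20860 in SBS jejunum and 21900 to 23480 in SBS ileum. The part of these cells in the integrin differences was not tested.

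Sham rat 33 alone gave both regions among the sham animals, and the sham regions are described here without a test. Its jejunal array lay above all 3 sham ileal arrays for Itgb5 (5.80 against 5.06 to 5.32) and below them for Itga2 (4.98 against 5.64 to 5.90) and Itgb6 (7.22 against 7.38 to 7.58). Type I collagen, at 7.97, lay within the sham ileal range of 7.11 to 8.32.

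The 2 measured genes caught only by name did not pass the test in any comparison, blocked or not. Itgb1bp1 encodes a cytoplasmic regulator of beta-1 integrin and was at 6.26, 6.32 and 6.19 in sham ileum and at 5.84, 6.07, 5.45 and 6.07 in SBS ileum. The groups did not overlap, and the difference of -0.40 ± 0.16 did not pass (adjusted p = 0.233). Itgb3bp, a centromere protein that also binds beta-3 integrin, differed by 0.21 ± 0.20 (adjusted p = 0.646).

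The genes that make, cross-link and degrade matrix showed few calls. Of 10 measured collagen processing genes, among them the prolyl hydroxylase P4ha1, the lysyl hydroxylases Plod1, Plod2 and Plod3 and the collagen chaperone Serpinh1, 0 passed in any comparison of the unpaired fit or between regions in the blocked fit. At an adjusted p under 0.05 these comparisons called 2.93%, 1.47%, 0.186% and 9.27% of all probes. Serpinh1 differed by 0.07 ± 0.17 in ileum and -0.04 ± 0.24 in jejunum. Of 14 measured genes of matrix degradation, the macrophage elastase Mmp12 was at 4.98, 6.30 and 6.46 in sham ileum and below detection on all 4 SBS ileal arrays, at least 2.22-fold higher in sham. It was detected on sham arrays alone and was tested only because of them, so this is a description. The inhibitor Timp1 was at 7.93, 8.31, 7.51 and 7.87 in SBS jejunum against 6.10 in the single sham sample, a difference of 1.80 ± 0.33 (adjusted p = 0.0213). That value rests on 1 sham array, which also lay below the 6.90, 7.48 and 7.32 of sham ileum and could not be left out.

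Between the regions of the SBS rats, with the rat as a block, Mmp14, a membrane-bound collagenase, was 0.61 ± 0.13 higher in jejunum (adjusted p = 0.0108) and Mep1a, a brush border meprin chain, was lower, with a difference of -1.41 ± 0.21 (adjusted p = 0.00174). In this fit, which called 13.9% of all probes, 2 further genes of matrix degradation were called lower in jejunum. These were Mmp7, the matrilysin known from mouse Paneth cells, at -1.92 ± 0.37 (adjusted p = 0.00746, against 0.0667 without the block) and Adam17, a sheddase, at -0.54 ± 0.14 (adjusted p = 0.0276, against 0.0621). Dag1, which encodes dystroglycan, a laminin receptor outside the integrin family, was higher in jejunum by 0.61 ± 0.12 (adjusted p = 0.00843). Of the 4 measured genes of the other basement membrane list it alone passed, with or without the block, and in this comparison only. Of 14 other matrix genes none passed apart from Ecm1, which was below detection on all 4 SBS ileal arrays and at least 1.24-fold higher in SBS jejunum. Ecm1 was detected on 3 arrays, all of SBS jejunum, and was tested only because of them, so this is a description.

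Of 16 measured genes of the integrin adhesion complex, 2 were called lower in SBS ileum (against 2.29% of all probes) and 0 called higher (against 0.646%). Fermt3, the kindlin of blood cells that activates integrins, was at 5.33, 5.81 and 5.59 in sham and at 4.83, 4.90, 4.87 and 4.90 in SBS, a difference of -0.70 ± 0.16 (adjusted p = 0.0324). Cd47, an integrin-associated surface protein, was at 7.39, 7.53 and 7.70 in sham and at 6.55, 6.68, 6.62 and 7.07 in SBS, a difference of -0.81 ± 0.17 (adjusted p = 0.0247). Both genes had SBS values entirely below sham, in the comparison in which leukocyte markers were lower. With 1 array left out the count of 2 ranged from 0 to 2 and was 0 without the ileum of sham rat 34 or 35 or of SBS rat 36 or 38, and the adjusted p rose to 0.179 for Fermt3 (without sham rat 34) and to 0.148 for Cd47 (without sham rat 35). Among widely expressed members of the complex, the linker Vcl and the kinase Ilk differed by 0.25 ± 0.14 (adjusted p = 0.425) and 0.02 ± 0.14 (adjusted p = 0.957).

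The 2 measured genes of PDGF signalling did not pass in any comparison, blocked or not. Pdgfa, the ligand named in the study's title, was at 9.32, 8.86 and 8.53 in sham ileum and at 9.29, 8.42, 8.66 and 8.77 in SBS ileum, overlapping, with a difference of -0.12 ± 0.25 (adjusted p = 0.861). In jejunum it was at 9.52 in sham and at 9.23, 8.40, 8.68 and 8.72 in SBS, a difference of -0.77 ± 0.37 (adjusted p = 0.449). Its receptor gene Pdgfra was detected on 4 arrays and differed by -0.13 ± 0.16 in ileum (adjusted p = 0.732). Pdgfb, Pdgfd and Pdgfrl were detected on 0 arrays. Of 6 measured TGF-beta genes, Smad4 was lower in SBS jejunum than SBS ileum, with a difference of -0.45 ± 0.12 with the rat as a block (adjusted p = 0.0327). Without the block its adjusted p was 0.0249, and up to 0.0714 with 1 array left out, the ileum of rat 38. The other 5 did not pass in any comparison, blocked or not.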

How the data were processed

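Mucosal RNA (200 ng per sample, per the labels' protocols) was labelled and hybridised to bead arrays. The deposited signal table held each probe's bead intensity, not normalized between arrays, and a detection p-value per probe and array. Values in the deposited series matrix were on a log2 scale and equalled quantile-normalized log2 signals within 0.01, without background correction, with a median of 5.86 on each array. The scanner software was not given in the sources used here. Besides RatRef-12, which the labelling protocol states, the labels mention Rat Quad BeadChips.

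From these intensities limma 3.58.1 (R 4.3.3) made background-corrected, quantile-normalized log2 values through its neqc function, which estimates the background by way of the detection p-value; the added offset was 16. The offset shrinks differences of dim probes. The 9137 of 22517 probes with a detection p under 0.05 on 3 or more arrays were tested, with 1 mean per group over 12 arrays (lmFit, eBayes), two-sided, Benjamini-Hochberg over all of them. Members called, the strongest of each role and marker lists were named. Each member gene had 1 probe. Symbols came from the platform annotation (13787 probes with 1 symbol, 8730 with none), 13747 of them joined by Entrez identifier. The number of arrays limits precision, and the labels do not say beyond the codes that samples were separate animals.

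Sample codes give each SBS rat an ileal and a jejunal array. Deviations from group means correlated within rats 36 to 39 at r = 0.659, 0.467, 0.192 and 0.442 across probes, and at most 0.14 between rats, so the rat-blocked value is given beside the regional result. On simulated data with 9137 probes a log2 change of 1 was found in 75% of changed probes for ileum, 42% for jejunum, 14% for the difference of effects and 87% for the regions. Changed probes were picked at random from all of these, with noise drawn separately for each array. Such shares do not carry over to the members, whose median pooled SD was 0.416 against 0.229 for all kept probes. For Dcn, Col1a2 and Sparc it was 1.31, 1.24 and 1.18. Alternatives were the series matrix, offset 50, median scaling, the filter, the samples fitted, animal as a random block and each array left out. The blocked fit under other settings and for the list genes, and counts of list genes with an array left out, were added after seeing the data. Members and lists were chosen with earlier results of these data known.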

Additional observations from a re-analysis of the deposited data

Results flagged for a closer look

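A sample stood far from the others of its group in 4 of the 50 member and group combinations tested (groups of 4 arrays), where chance gives about 1 in 20, or 2.5. Itgb1 was at 9.88 in the jejunum of SBS rat 39, against 8.99 to 9.13 in the other SBS jejunal samples. Itga4 was at 4.73 in the jejunum of SBS rat 37, against 4.45 to 4.49, all 4 below detection. Col17a1 was at 4.45 in the ileum of SBS rat 37, against 4.25 to 4.26, all 4 below detection. Itgb3bp was at 5.31 in the ileum of SBS rat 36, against 5.70 to 5.72.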

How the results depend on the processing

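Over 100 gene and comparison values (25 members, 4 comparisons) and 1926 alternative values, 1916 kept their side of the threshold with no change of sign among the stronger effects, 10 newly passed and 0 reversed. The members called in ileum rose from 0 to 1 with no filter on dim probes (Itgad, adjusted p = 0.0225) and to 1 with a replicate block on the shared numbers, which join different sham and SBS rats (Itgb5, 1.03, adjusted p = 0.0275). They ranged from 0 to 2 when 1 array was left out. Without the ileum of SBS rat 37 they included Itga4 and Col14a1, by then detected on sham arrays alone. In jejunum they rose to 1 with no filter (Itgad, adjusted p = 0.0113) and stayed at 0 with any of 11 arrays left out, as did the difference of effects. The sham jejunal array, on which both rest, was not left out. Between SBS regions they rose to 1 with the animal as a random block (Itga2, adjusted p = 0.0227, within-animal correlation 0.349) and 3 with the rat as a replicate block, and ranged from 0 to 1 with an array left out (Itga2, -0.85, adjusted p = 0.0125, without the jejunum of SBS rat 39). In the blocked fit Itgb5 kept its call with the series matrix (adjusted p = 0.00998) and offset 50 (adjusted p = 0.0102), as Itgb6 did (adjusted p = 0.0361 and 0.042), and Itga2 did not (adjusted p = 0.0963 and 0.108).

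All probes called in ileum, 268, became 170 with no filter, 127 without rat 36 and 23 to 332 with an array left out, the 23 without the ileum of sham rat 34. Those in jejunum, 134, became 80 with median scaling, 77 with no filter, 21 with only the groups compared and 97 to 182 with an array left out. The difference of effects went from 17 to 33 under the random block, and from 8 to 30 with an array left out. The regional count went from 847 to 1519 with the random block, 1272 with the replicate block and 593 to 932 with an array left out. With an array left out, the median member difference ranged from -0.22 to 0.11 in ileum (0.11 without the ileum of SBS rat 39), -0.29 to -0.03 in jejunum, -0.09 to 0.05 for the difference and -0.07 to 0.12 between regions. Under the other settings it ranged from -0.28 to 0.11, -0.23 to -0.03, -0.11 to 0.13 and -0.01 to 0.05. Median scaling moved the median of all probes to -0.09 in ileum and 0.16 for the difference. The cause of these changes was not tested, beyond the numbers of probes or arrays entering each fit. No paired analysis was possible in jejunum because SBS and sham share 1 number. The fit on only the groups compared was not run for the difference, and a mean over probes was not needed with 1 probe per gene. Dim signal limits Col5a1, Col14a1, Col17a1, Col18a1, Col27a1, Itga4 and Itgad, which lay near the detection limit. Some values of Itga1, Itga2, Lum, Fn1, Col5a2, Col6a1, Dcn and Sparc were below detection as well.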

Other observations

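The other matrix genes, a list apart from the members, often had the same high and low rats as the collagens, with exceptions. In SBS ileum rat 37 was highest for 9 of these 14 genes (64.3%, against 22.5% of all kept probes) and rat 39 lowest for 8 (57.1% against 23.8%). Sparcl1, a relative of SPARC chosen after its values were seen, was at 4.84, 8.27, 7.34 and 4.56 in the ileum of SBS rats 36 to 39 and at 6.69, 5.87 and 7.44 in sham ileum. Tgfbi, a collagen-binding protein, went another way, at 6.12, 6.39, 7.12 and 6.99 in the same SBS rats. So did Smoc2, a matricellular gene of the other basement membrane list, at 6.20, 7.41, 7.36 and 7.50. The difference of Sparcl1 between SBS and sham ileum, -0.41 ± 0.89, did not pass limma's test (adjusted p = 0.863). Pf4, a platelet chemokine, was the only measured gene of its marker list. Its normalized linear signal was 22.45, 67.97, 44.96 and 21.35 in SBS ileum and 46.09, 27.16 and 56.31 in sham ileum. The values of 22.45 and 21.35 lay below the lowest detected level of their arrays.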
